A study of Mus musculus with 8 samples.

Results

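The methylation of 52186 genomic tiles in mouse mammary tumors was examined for whether 2 drugs given together changed it by more, or by less, than the sum of what each did alone. A tile is a 1000 bp window of an autosome, and these are the tiles with at least 3 cytosines covered by at least 10 reads in all 8 libraries, out of 110339 tiles with at least 1 such cytosine. For each tile the interaction was calculated as the methylation with both drugs minus that with 5-azadC minus that with C29 plus that with vehicle, in percentage points. A negative interaction means that tumors given both drugs were less methylated than the sum of the single effects predicts, and a positive interaction that they were more methylated.

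The tumors came from NIC-5231 cells (a mouse breast cancer cell line, written NIC5231 in the labels) injected into a mammary fat pad of NSG hosts, mice without functional B, T or NK cells that were 5 to 7 weeks old at injection. Once tumors could be felt, groups of 5 mice received intraperitoneal injections every 2 days of the saline, PEG and DMSO carrier (vehicle, labelled DMSO), of C29 at 10 mg/kg, of 5-azadC at 1 mg/kg, or of both drugs at these doses. Each of the 4 groups is represented by 2 reduced representation bisulfite sequencing (RRBS) libraries, and each library holds DNA of 2 animals mixed before sequencing, so values of single mice are not seen. The line and its host are both mouse, and a change in the share of cell types within a tumor cannot be told apart from a change of methylation within cells.

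DNA methylation in mammals sits mostly on cytosines followed by guanine (CpGs). DNMT1, the maintenance methyltransferase, copies it to the new strand after replication, with S-adenosylmethionine from the methionine cycle as the methyl donor. The cytidine analog 5-azadC (decitabine) is built into DNA, where it traps DNMT1, so that methylation is diluted as cells divide. C29 is an inhibitor of ERRα, an orphan nuclear receptor that drives genes of mitochondrial metabolism and whose part in DNA methylation the study examined. Effects on a percentage need not add up exactly, since methylation cannot pass below 0 or above 100%.

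RRBS reads short fragments of CpG-rich DNA, so a tile is usually seen through a few clustered CpGs. The following stretches carry the results below and are given from RefSeq's GRCm38.p6 genome, plus strand, 5′ to 3′, with the CpGs that were counted in capitals. The first pair belong to the only tiles past the adjusted threshold, and the others to tiles at the extremes of either direction.
Gm13816, intron of a non-coding gene, chr2:92755822-92755888: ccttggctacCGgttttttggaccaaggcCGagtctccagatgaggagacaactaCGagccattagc
Hs3st6, promoter, chr17:24752546-24752676: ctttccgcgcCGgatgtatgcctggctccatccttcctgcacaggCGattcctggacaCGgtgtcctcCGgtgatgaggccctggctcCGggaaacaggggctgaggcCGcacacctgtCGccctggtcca
Pde4d, intron, chr13:108691208-108691272: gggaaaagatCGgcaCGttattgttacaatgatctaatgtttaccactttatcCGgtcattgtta
Kcnc1, coding exon, chr7:46398084-46398129: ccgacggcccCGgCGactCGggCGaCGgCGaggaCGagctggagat
Gramd1b, promoter, chr9:40531424-40531471: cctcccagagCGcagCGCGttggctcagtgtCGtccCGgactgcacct
Ppp1r3c, promoter, chr19:36736824-36736894: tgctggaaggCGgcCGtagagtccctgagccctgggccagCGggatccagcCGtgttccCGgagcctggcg
Tfpi2, 22049 bp downstream of the start site, chr6:3946300-3946360: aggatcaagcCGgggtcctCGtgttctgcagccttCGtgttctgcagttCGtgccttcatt
In the Gramd1b and Ppp1r3c stretches all 5 counted cytosines lie on 1 strand within 50 bp of each other, so the same reads cover them and they are not independent measurements. Across all tiles, 24.3% held only cytosines of 1 strand within 100 bp.

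Coverage summed over cytosines was 51359825 to 81299065 per library, where a read counts once at each cytosine it covers. The median depth of a library was 21 to 30 reads per cytosine. Summed over the cytosines of a tile, the median was 265 reads per tile and library. Read numbers of tiles given below are sums of this kind. Spike-in controls were called methylated in 0.216% to 0.329% of reads for unmethylated DNA and in 97.5% to 98.3% for methylated DNA. The spread between libraries of a group was nonetheless wide. In 7.77% of tiles the vehicle libraries differed by more than 25 points, and this share was 8.82% for C29, 10.5% for 5-azadC and 12.5% for both drugs. The median standard error of the interaction was 9.95 points over all tiles and 16.2 points in the 19335 tiles with mean methylation between 20% and 80%. Reads carry no molecular identifiers, so PCR copies of 1 molecule are counted as separate reads.

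Averaged over tiles, both drugs together lowered methylation slightly less than their single effects add up to. Vehicle libraries had a mean tile methylation of 48.3% ± 0.108 (SD, n = 2), C29 libraries 47.6% ± 0.851, 5-azadC libraries 42.4% ± 0.362 and libraries of both drugs 43.6% ± 0.113. The effect of C29 was -0.71 points without 5-azadC and 1.19 points with it. The single effects sum to -6.53 points, the combined effect was -4.63 points, and the mean interaction was 1.9 points with a standard error of 0.663. When the C29 label was moved within the libraries with and without 5-azadC, the two-sided exact permutation p was 0.0556. This is the smallest that these 36 arrangements allow, so this design cannot pass 0.05. The null of this permutation is no effect of C29 with or without 5-azadC, which is narrower than additivity. The mean interaction was positive in promoters (1.29 points, 15097 tiles), exons (2.42 points, 11155 tiles), introns (2.21 points, 13387 tiles) and intergenic DNA (1.83 points, 12547 tiles). Exact permutation p-values for these 4 classes lay between 0.0556 and 0.167, and between 0.0927 and 0.167 after adjustment over the 5 comparisons. The 4 libraries with 5-azadC were lower than the 4 without it in every class.

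Most tiles had an interaction near 0, which does not by itself show additivity. Mean methylation was below 5% in 14524 tiles (27.8%), which leaves little room for an interaction, and the median standard error was 9.95 points. The median interaction was 0.273 points, 63.0% of tiles lay within 10 points of 0, and 5% of tiles each lay below -22.5 and above 28.0 points. The lowest value was -140.0 and the highest 135.0 points. An interaction of at most -25 points was found in 2082 tiles (3.99%) and one of at least 25 points in 3387 (6.49%). To see how far these rest on single libraries, the interaction was recalculated for the 16 ways of taking 1 library from each group. All 16 estimates were negative in 1122 tiles of at most -25 points (2.15% of all tiles) and positive in 2026 tiles of at least 25 points (3.88%). These are called negative and positive tiles from here on.

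By the moderated test of limma on percent methylation, 2 tiles passed a Benjamini-Hochberg adjusted p of 0.05 (0.00383% of 52186), 1 in each direction (0.00192% each). An unadjusted p below 0.05 was found in 3221 tiles (6.17%), of which 1220 were negative (2.34% of all) and 2001 positive (3.83%). With 2 libraries a group and 4 residual degrees of freedom, a tile that misses the threshold is not shown to be additive. The tiles named below, other than the called pair, are therefore described by their values, and they were picked for the size and agreement of those values.

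**Figure D1:**
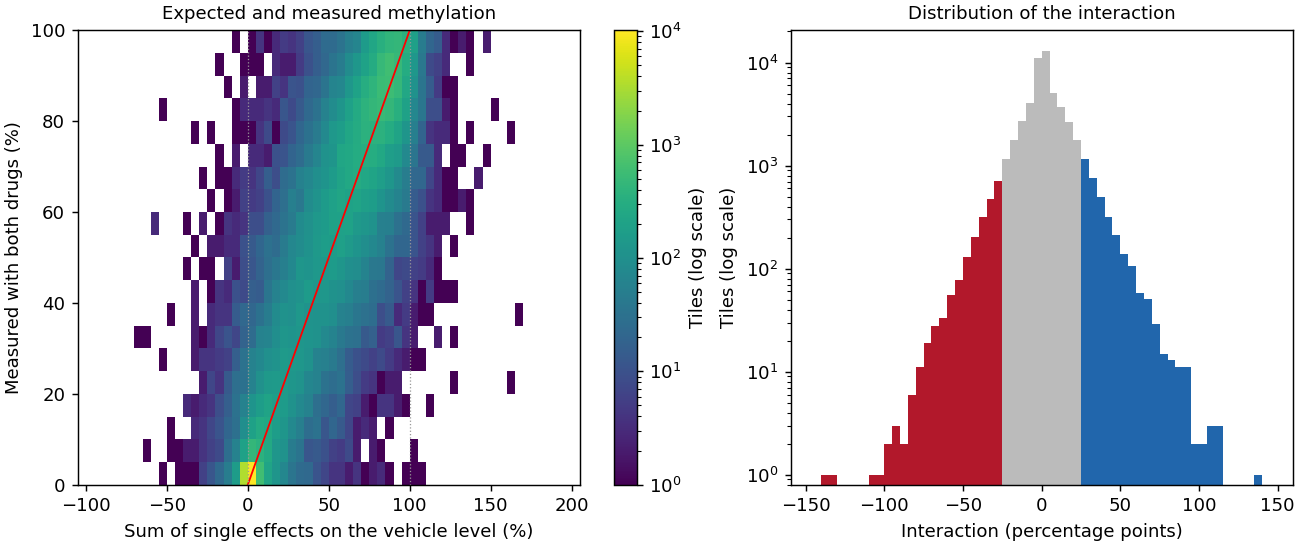
Left, methylation measured with both drugs (%, vertical axis) against the vehicle level plus both single effects (%, horizontal axis), with the number of the 52186 tiles in each cell on a log color scale, the line of additivity in red and dotted lines at 0 and 100%. Right, the number of tiles (log axis) by interaction in percentage points, red below -25 and blue above 25, where the blue side holds more tiles (3387 against 2082).

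The expected level of a tile is its vehicle level plus both single effects. It fell below 0% in 4657 tiles (8.92%) and above 100% in 1009 (1.93%), levels that methylation cannot reach. It is an estimate with error, and many of these tiles lay close to the limit. In 3420 tiles it was between -5 and 0%, with 0 to 5% measured with both drugs. Of the positive tiles, 329 had an expected level below 0%, and of the negative tiles 226 had one above 100%. Among the 46520 tiles whose expected level stayed between 0 and 100%, 1697 were positive and 896 negative. Positive tiles thus outnumbered negative ones there too.

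An interaction can come from any of the 4 groups, and the direction of departure differed between them. Both 5-azadC libraries lay below all 6 others in 3759 tiles (7.2%) and above them in 717 (1.37%). Both libraries of the combination lay below all others in 2522 tiles (4.83%) and above them in 995 (1.91%). Vehicle libraries stood above all others in 3230 tiles (6.19%) and below in 445 (0.853%), and C29 libraries above in 2699 (5.17%) and below in 702 (1.35%). With a gap of at least 10 points, the combination was lowest in 434 tiles (0.832%) and 5-azadC alone in 611 (1.17%).

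**Figure D2:**
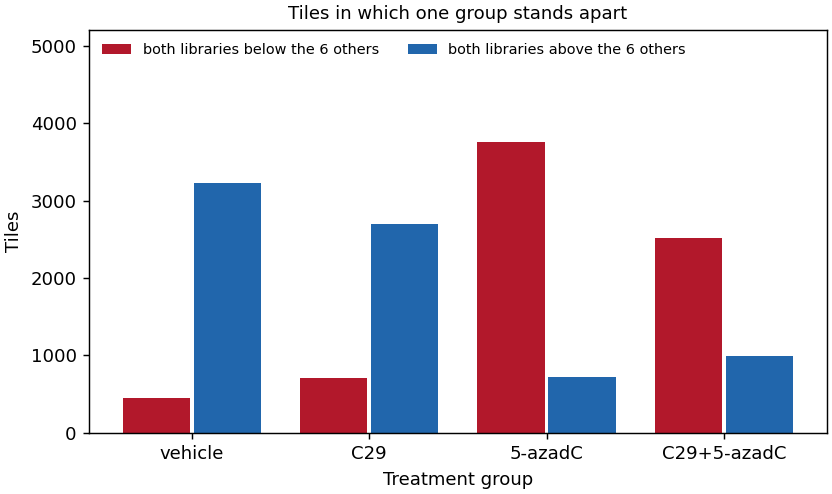
Number of tiles (vertical axis) in which both libraries of a treatment group (horizontal axis) lie below (red) or above (blue) the 6 libraries of the other groups. More tiles have 5-azadC alone lowest (3759) than the combination lowest (2522).

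Among the 1122 negative tiles, the combination was the lowest group, in both libraries, in 462 (41.2%), and C29 alone was the highest in 321 (28.6%). A fall only with both drugs, with each single effect within 10 points of 0 and a combined effect of at most -25 points, was found in 139 tiles (12.4%). In 154 tiles (13.7%) methylation rose by at least 25 points with C29 alone but was within 10 points of vehicle with both drugs, and in 73 (6.51%) the same held for 5-azadC alone. Most negative tiles, 789 (70.3%), had none of these fall or rise patterns. Both single effects were above 0 in 826 negative tiles (73.6%), against 17.5% of all tiles, and the median effects were 15.8 points for C29, 9.56 for 5-azadC and -10.8 for both. Since each single effect enters the interaction with a minus sign, this direction follows in part from how the tiles were chosen, and these counts describe the tiles without testing them.

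Both single effects were below 0 in 1845 of the 2026 positive tiles (91.1%), against 41.1% of all tiles, a direction that again follows in part from the choice of tiles. Among the 2026 positive tiles, 492 (24.3%) fell by at least 25 points with 5-azadC alone and stayed within 10 points of vehicle with both drugs. The same pattern for C29 was found in 166 tiles (8.19%). In 338 tiles (16.7%) both single effects and the combined effect were at most -15 points, so that a loss was present in all 3 groups but less than the sum. A rise only with both drugs was found in 27 tiles (1.33%), and 1065 tiles (52.6%) had none of these patterns. The median effects were -16.1 points for C29, -24.9 for 5-azadC and -3.9 for both.

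Negative and positive tiles made up a smaller share of promoters (0.702% negative and 1.78% positive) than of exons (1.97% and 3.88%), introns (3.08% and 4.86%) or intergenic DNA (3.06% and 5.38%). Tiles with 40 or more CpGs in the genome had 0.415% negative and 1.54% positive, and tiles with 10 to 19 CpGs had 3.27% and 5.28%. The level of a tile bounds its interaction, and the 14524 tiles with mean methylation below 5%, among them 65.7% of promoter tiles, cannot reach 25 points by arithmetic. At a mean methylation of 60 to 80% the shares were 3.63% negative and 7.38% positive. Negative tiles had a median of 3 counted cytosines and 83 reads in their shallowest library, positive tiles 4 and 90, and all tiles 5 and 140. Cytosines of 1 strand within 100 bp made up 38.2% of negative and 35.1% of positive tiles, against 24.3% of all. The part that depth and the number of cytosines had in the interaction was not tested.

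Of 9268 pairs of adjacent tiles, 9 pairs were both at -25 points or less, 42 both at 25 points or more, and 18 had 1 tile of each kind. Among all tiles, 3.99% were at -25 points or less and 6.49% at 25 points or more, and clustering of neighbors was not tested. The median interaction by chromosome ranged from 0.0676 to 0.525 points.

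Binding motifs were counted in the tiles on both strands. The ERRα response element TCAAGGTCA was present in 2.32% of all tiles, 2.41% of negative and 3.41% of positive tiles. GAAANNGAA, the paired core of interferon response elements, was present in 25.2%, 27.8% and 27.2%. The ETS site CCGGAAGT was present in 4.96% of all tiles, 3.3% of negative and 3.6% of positive tiles. These shares are descriptions and were not tested.

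The tile that passed the adjusted threshold on the negative side lies in an intron of Gm13816, a non-coding gene (chromosome 2, 92755001 to 92756000). All 3 of its cytosines were at 100% in the vehicle, C29 and 5-azadC libraries and at 0% in each library given both drugs, on 36 to 108 reads per library. The interaction was -100.0 points (SE 4.51, limma adjusted p = 0.0462). Both libraries of every group had the same value, so this SE rests on the variance that limma borrows from other tiles. It is not a measured spread between libraries. Its 3 cytosines lie on 1 strand within 45 bp and have equal read numbers in every library, 12 to 36 per cytosine, so the same fragments were counted at each of them. No tile was called in either direction when the strands of a CpG were summed or when methylation was put on the M value (log-odds) scale.

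On the positive side the called tile lies in the promoter of Hs3st6, which encodes a heparan sulfate 3-O-sulfotransferase (chromosome 17, 24752001 to 24753000, 11 cytosines at positions -432 to -22 from the start site). It was at 7.97% and 7.73% with vehicle, 0% and 0.115% with C29, 0% in both 5-azadC libraries, and 5.92% and 6.81% with both drugs, on 514 to 873 reads. The low methylation of vehicle tumors was nearly absent with either drug alone and present with both, with no overlap. The interaction was 14.2 points (SE 0.611, limma adjusted p = 0.0462). The expected level was -7.79%, below what methylation can reach, so part of the 14.2 points would be present even at 0% with both drugs. The cytosine at position -432 had the highest single value, 54.8 points, at 38.7% and 12.8% with vehicle, 0% in all 4 single-drug libraries, and 35.7% and 22.4% with both drugs.

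The 12 most extreme negative tiles with at least 50 reads in every library had interactions from -132.0 to -52.6 points, and their adjusted p ranged from 0.305 to 0.76. In 11 of the 12, methylation was higher with each single drug than with vehicle. In 6 the combination was within 10 points of vehicle, as it was in 68.6% of all tiles. The expected level lay above 100% in 6 of the 12, those of Gm47066, Itga2, Scimp, Sp5, Emx2 and Gypc. Among the 12 tiles, methylation was absent with both drugs and high in the 6 other libraries in an intron of Pde4d, a phosphodiesterase that breaks down cAMP (chromosome 13, 108691001 to 108692000, 3 cytosines). Its expected level was 84.2%. It was at 91.4% and 100% with vehicle, 89.2% and 81.6% with C29, 89.0% and 100% with 5-azadC, and 0% with the combination in each library, on 75 to 381 reads. The interaction was -84.2 points (SE 8.68, limma adjusted p = 0.305). A second fall was in an intron of Itga2, the integrin α2 subunit that binds collagen (chromosome 13, 114839001 to 114840000). There methylation was 38.8% and 51.4% with vehicle, 69.4% and 100% with C29, 69.3% and 73.0% with 5-azadC, and 19% and 11% with both. The combination libraries were the lowest and the single-drug libraries the highest, with no overlap, and the interaction was -95.7 points (SE 17.0).

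In the 6 tiles whose combination was within 10 points of vehicle, the means of the single drugs stood higher. The libraries did not always agree. In the tile nearest to Cmtm8, C29 libraries were at 61.0% and 0%, 5-azadC libraries at 51.4% and 44.7%, and all vehicle and combination libraries at 0%. The exon of Kcnc1, a voltage-gated potassium channel, was at 17.7% and 26.4% with vehicle, 62.9% and 59.6% with C29, 47.2% and 49.8% with 5-azadC, and 22.0% and 24.8% with both (chromosome 7, 46398001 to 46399000, 7 cytosines, 175 to 798 reads). The interaction was -64.3 points (SE 11.1), and each of the 7 cytosines had a negative one. The tile at position -2821 from the start site of Sp5, a zinc-finger transcription factor and Wnt target, was at 52.6% and 30.9% with vehicle and at 45.6% and 46.3% with both drugs, against 70.4% to 88.0% in the single-drug libraries (chromosome 2, 70472001 to 70473000). An intron of Emx2, a homeobox transcription factor, was at 100% in all 4 single-drug libraries, at 52.9% and 71.4% with vehicle, and at 35.4% and 85.7% with both (chromosome 19, 59460001 to 59461000). Outside these 6, in an intron of Scimp, an adaptor protein of immune cells, both drugs gave 43.4% and 32.4%, below the 52.8% and 62.1% of vehicle and the 70.9% to 98.4% of the single drugs (chromosome 11, 70805001 to 70806000).

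The 12 most extreme positive tiles had interactions from 61.7 to 114.0 points and adjusted p from 0.0922 to 0.681. In 11 of the 12 both single effects were below 0. In 7 the combination was within 10 points of vehicle, as it was in 68.6% of all tiles. The expected level lay below 0% in 9 of the 12, all but Tfpi2, Ovol2 and the tile near Gm42880. The tile with the widest margin was the promoter of Gramd1b, which encodes a sterol transporter of the endoplasmic reticulum (chromosome 9, 40531001 to 40532000, 5 cytosines). Methylation was 81.3% and 89.0% with vehicle, 38.5% and 36.7% with C29, 39.1% and 42.8% with 5-azadC, and 87.0% and 74.0% with both drugs, on 104 to 375 reads. The 4 single-drug libraries lay below the 4 others, vehicle and combination overlapped, and the interaction was 87.1 points (SE 9.58, limma adjusted p = 0.34, lowest of the 16 estimates 74.1). The next tile, up to 40533000, had an interaction of 31.3 points, so that Gramd1b also formed a run of adjacent positive tiles.

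At the tile 22049 bp downstream of the start site of Tfpi2, a serine protease inhibitor, only 5-azadC alone departed (chromosome 6, 3946001 to 3947000). It was at 25% and 30.8% there and at 100% in the 6 other libraries, on 52 to 152 reads. The interaction was 72.1 points (SE 4.69, limma adjusted p = 0.0922), equal in size to the 5-azadC effect, since neither C29 nor the combination differed from vehicle. An intron of Ovol2, a zinc-finger repressor that maintains epithelial identity, had C29 as the lowest group instead. It was at 56.4% and 39.6% with C29, 84.5% and 78.9% with 5-azadC, and 100% in the 4 libraries with vehicle or both drugs (chromosome 2, 144329001 to 144330000). An exon of Plcb2, a phospholipase C, was at 100% in both vehicle libraries, at 39.9% to 54.8% with single drugs, and at 77.8% and 74.6% with both (chromosome 2, 118711001 to 118712000). The last of these is a loss with both drugs that was smaller than with either alone.

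**Figure D3:**
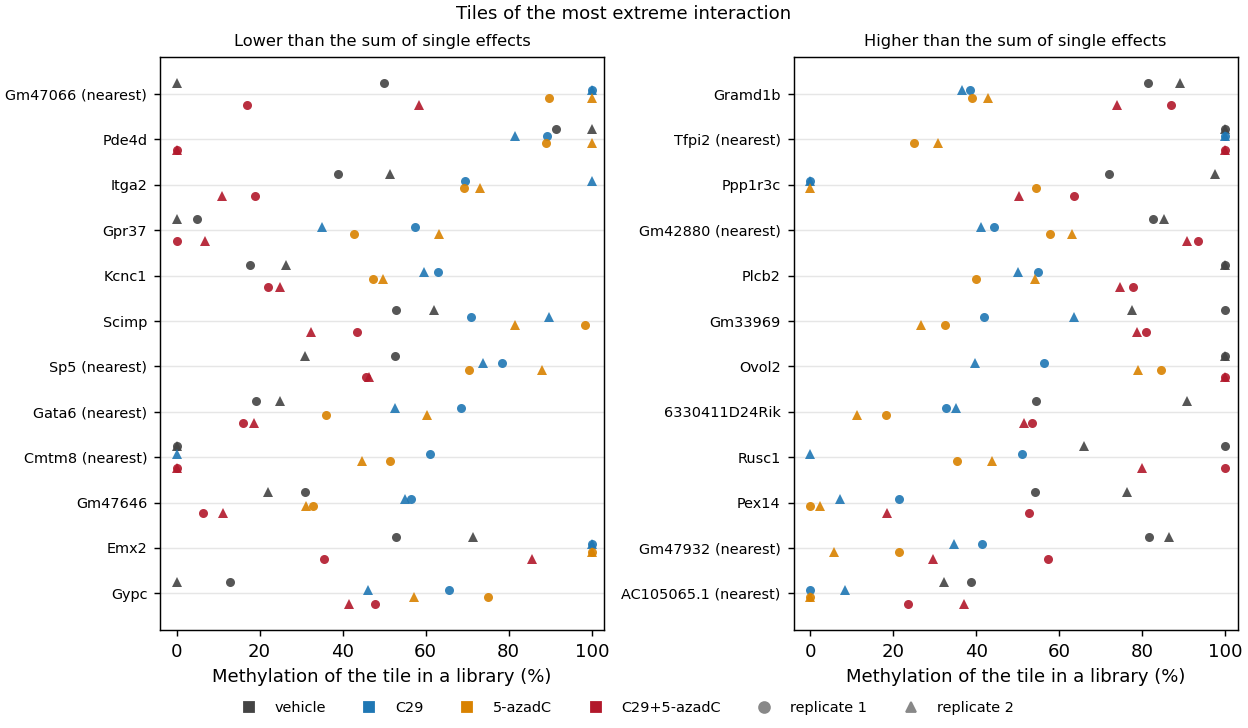
Methylation (%, horizontal axis) in each library of the 12 most extreme negative tiles (left) and positive tiles (right), named by promoter, gene body or nearest start site. Colors are treatment groups and shapes the 2 replicates, and in Kcnc1 and Gramd1b vehicle (grey) and both drugs (red) lie on the same side of C29 (blue) and 5-azadC (orange), while Pde4d is at 0% with both drugs and above 80% elsewhere.

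Promoter tiles, with a counted cytosine in the 1000 bp upstream of a protein-coding start site, followed the same course. The 8 most extreme negative ones had interactions from -93.1 to -41.6 points, and the expected level exceeded 100% in 2 of them, Gypc and Trim36. The promoter of Gpr37, an orphan G protein-coupled receptor, was at 5.0% and 0% with vehicle, 57.4% and 35.1% with C29, 42.7% and 63.1% with 5-azadC, and 0% and 6.92% with both (chromosome 6, 25690001 to 25691000, 4 cytosines in the 5′ untranslated exon). Both single drugs were higher than vehicle and combination without overlap, and the interaction was -93.1 points (SE 15.2, limma adjusted p = 0.495). The promoter of Epha2, a receptor tyrosine kinase of epithelia, had 25.6% and 18.1% with vehicle, 32.6% to 55.0% with single drugs, and 16.7% and 23.6% with both (chromosome 4, 141308001 to 141309000). Dxo, which removes incomplete mRNA caps, was at 19.6% and 38.0% with vehicle, 38.0% to 49.6% with single drugs, and at most 22.3% with both, so that vehicle reached the lower end of the single drugs. All 9 counted cytosines of Epha2 and 7 of the 8 of Dxo also lie in annotated coding sequence. They count as promoter because they lie upstream of an annotated start site.

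The combination was the lowest group, in both libraries, in 3 of these promoters. Morf4l1, a chromodomain protein of histone acetyltransferase complexes, was at 76.7% and 83.2% with vehicle, 87.3% and 85.0% with C29, 74.0% and 86.0% with 5-azadC, and 47.0% and 40.9% with both (chromosome 9, 90096001 to 90097000, 80 to 215 reads). The interaction was -42.3 points (SE 8.1, limma adjusted p = 0.552). Trim36, a ubiquitin ligase, was at 43.8% and 47.7% with both drugs and at 64.0% to 100% in the 6 other libraries (chromosome 18, 46176001 to 46177000). Pgm1, a phosphoglucomutase of glycogen metabolism, was at 16.6% and 10.9% with both drugs, at 48.8% and 52.3% with 5-azadC and at 58.2% to 88.0% with vehicle or C29 (chromosome 4, 99955001 to 99956000). Pgm1 therefore fell with 5-azadC alone as well, by 20.8 points, while Morf4l1 did not.

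The 8 most extreme positive promoters had interactions from 50.5 to 114.0 points. Both single effects were below 0 in all 8, and the expected level lay below 0% in 6. Ppp1r3c, which targets protein phosphatase 1 to glycogen, was at 72.0% and 97.4% with vehicle, 0% in both C29 libraries, 54.5% and 0% with 5-azadC, and 63.6% and 50.4% with both (chromosome 19, 36736001 to 36737000, 55 to 235 reads). The interaction was 114.0 points with an SE of 28.5, and the 5-azadC libraries were far apart. The expected level was -57.5%, far below what methylation can reach. Rassf2, a Ras-association protein often silenced in tumors, was at 60.5% and 64.4% with vehicle, 14.6% and 0% with C29, 40% and 42.0% with 5-azadC, and 35.0% and 65.2% with both (chromosome 2, 132030001 to 132031000). The combination libraries there lay on either side of all 5-azadC and vehicle libraries. The tile of Hoxd4, a homeobox factor, was at 55.3% and 63.3% with vehicle, 28.4% and 34.4% with C29, 33.3% and 26.0% with 5-azadC, and 50.7% and 53.5% with both (chromosome 2, 74727001 to 74728000, 16 cytosines, 468 to 875 reads). Only 1 of its 16 cytosines lies in the window upstream of the start site and all 16 lie in annotated exons, and the interaction was 50.5 points (SE 11.6).

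**Figure D4:**
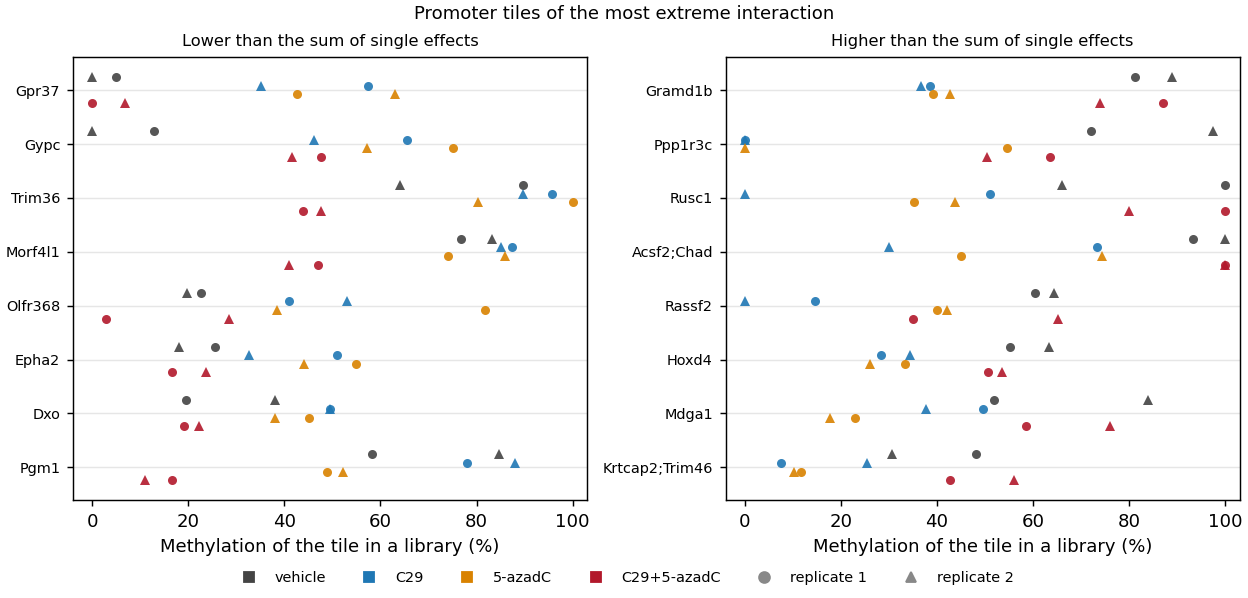
Methylation (%, horizontal axis) in each library of the 8 most extreme negative and 8 most extreme positive promoter tiles, with colors for treatment groups and shapes for replicates. In Morf4l1, Trim36 and Pgm1 both libraries of the combination (red) lie lowest, and in Gramd1b and Hoxd4 the single drugs (blue and orange) lie below vehicle and combination.

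Single cytosines within these tiles mostly went the same way as the tile. Of 351 cytosines in 55 described tiles, 312 had an interaction of the sign of their tile, and in 37 tiles all did. A tile's value is made from the reads of these same cytosines, and most of the tiles were picked for that value. The agreement is therefore in part built in and is not a separate measurement. Neighbors on the same reads often had equal values. In the Ppp1r3c promoter each of 5 cytosines was at 72.0% in vehicle replicate 1 and at 54.5% in 5-azadC replicate 1. In the Gramd1b promoter the cytosine 73 bases upstream of the start site was at 86.7% and 100% with vehicle, 0% in both C29 libraries, and 100% and 32.5% with both drugs, and it had the highest interaction of the 5.

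**Figure D5:**
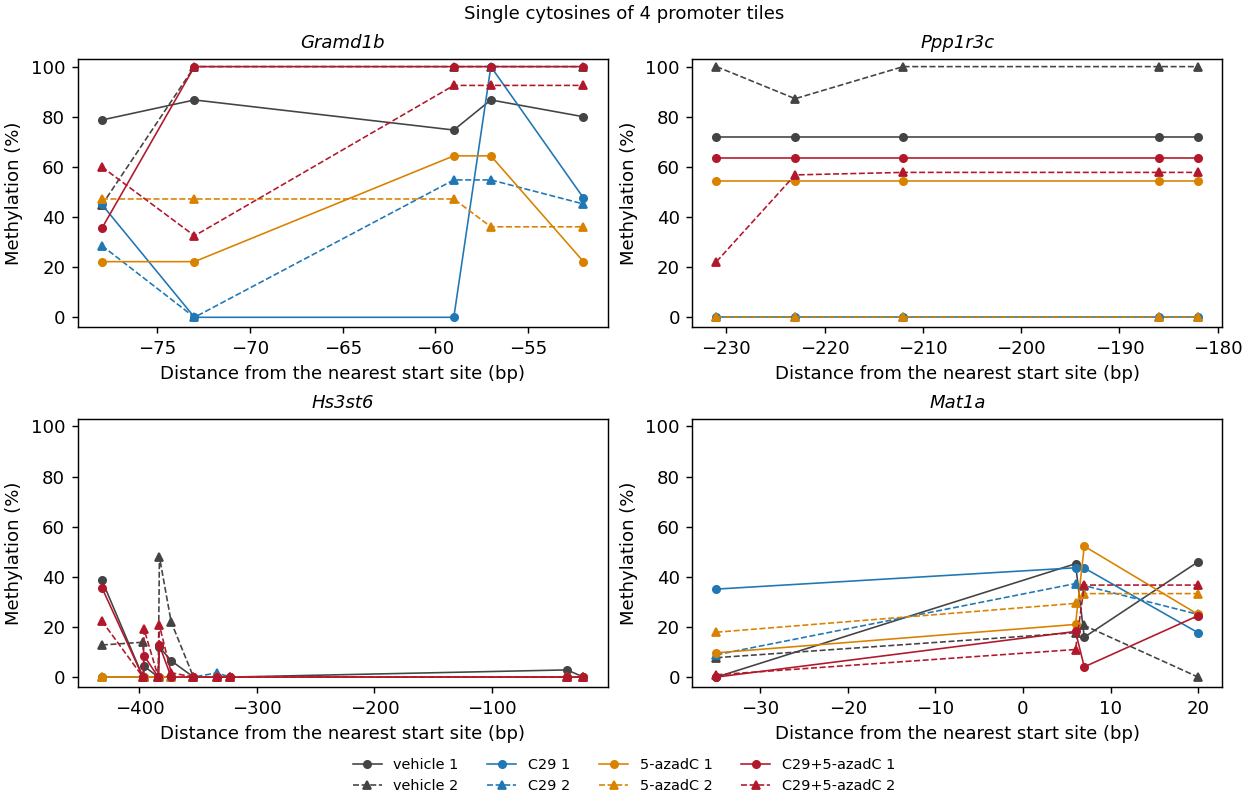
Methylation (%, vertical axis) of single cytosines against distance from the nearest annotated start site (bp) in 4 promoter tiles, with 1 line per library, colors for treatment groups and solid or dashed lines for replicates 1 and 2. Values of neighboring cytosines run level in Ppp1r3c, and in Hs3st6 the single-drug libraries stay at or near 0%.

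Where all 16 estimates of both neighbors also had to share the sign, 2 negative and 14 positive runs of 2 adjacent tiles were found. They come from 9268 pairs of adjacent tiles, and 2.15% of all tiles were negative and 3.88% positive. Whether the runs are more than unrelated neighbors would give was not tested, so a run does not back up its tiles. Fragments can cross a tile border, so neighboring tiles are not always separate measurements. Of the positive runs, the one with the widest margin covers the promoter and an exon of Barx1, a homeobox factor of the stomach and teeth (chromosome 13, 48662001 to 48664000). Its promoter tile was at 94.3% and 71.2% with vehicle, 23.9% and 36.9% with C29, 40.9% and 64.3% with 5-azadC, and 45.5% and 64.5% with both (11 cytosines, interaction 54.7 points). The adjacent tile of 32 cytosines had an interaction of 36.7 points (SE 11.8), and C29 was the lowest group in both. At Sall3, a zinc-finger developmental factor, the adjacent tiles had interactions of 55.6 and 36.4 points over 14 and 48 cytosines (chromosome 18, 80985001 to 80987000). In the first of these, vehicle was at 53.7% and 66.9%, the single drugs between 24.9% and 44.1%, and both drugs at 61.6% and 61.9%. Runs at Ryr1, the muscle calcium release channel, and Anks1b, a synaptic scaffold protein in which reads near the border cover both tiles, had interactions of 55.9 and 25 points and of 30.8 and 32.8 points. The widest negative run lies in an intron of Maml3, a coactivator of Notch (chromosome 3, 51841001 to 51843000, -33.3 and -54.5 points). In its first tile vehicle was at 66.7% in both libraries and the 6 other libraries at 100%, and the expected level, 133.0%, was out of reach.

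The promoters of genes that the study itself examined, partly chosen on these samples, were also read. Of 18 genes (9 transcription factors, Esrra, and enzymes of DNA methylation and the methionine cycle), 15 had a tile that overlaps the promoter, while Irf4, Hoxa3 and Tdg had none that met the coverage rule. In 13 of the 15 the 28 tiles had interactions from -7.4 to 11.8 points, and 24 of the 28 lay within 5 points of 0, as did 73.7% of all 15097 promoter tiles. Mean methylation was below 5% in 17 of the 28, which leaves little room for an interaction. The Esrra tile, for example, was at 0% to 1.85%. The other two genes were Mat1a and Foxe1. Mat1a, the methionine adenosyltransferase of differentiated liver, which makes S-adenosylmethionine, had 26.5% and 11.9% with vehicle, 34.0% and 25.7% with C29, 27.6% and 28.6% with 5-azadC, and 10.9% and 12.6% with both (chromosome 14, 41105001 to 41106000, 4 cytosines, 200 to 385 reads). The single-drug libraries lay above those of the combination, 1 vehicle library lay among each, and the interaction was -27.0 points (SE 9.01, limma adjusted p = 0.758). The tile of Foxe1, a forkhead factor of the thyroid, was at 50.9% and 74.8% with vehicle, 75.7% and 62.3% with C29, 70.7% and 36.5% with 5-azadC, and 15.4% and 22.3% with both (chromosome 4, 46343001 to 46344000). Its interaction was -40.8 points (SE 21.2, limma adjusted p = 0.886), the combination was the lowest group, and its 5 cytosines lie 357 to 386 bases downstream of the Foxe1 start site, in the untranslated part of its exon.

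Lists of genes were compared with the 40108 tiles that lie in any gene or promoter, of which 1.86% were negative and 3.44% positive. Hox genes, which set positional identity in development, had 121 tiles with 1 negative (0.826%) and 10 positive (8.26%). Apart from Hoxd4, Mat1a and Foxe1, the tiles given from these lists were chosen after their values were seen. The Hoxc13 promoter was at 43.6% and 54.5% with vehicle, 22.1% and 29.9% with C29, 20.8% and 22.6% with 5-azadC, and 43.9% and 28.3% with both (16 cytosines, interaction 37.5 points). Other developmental transcription factors had 489 tiles with 9 negative (1.84%) and 23 positive (4.7%). Of these the Pax6 promoter had 58.4% and 69.4% with vehicle, 27.0% and 33.1% with C29, 50.6% and 43.2% with 5-azadC, and 76.9% and 47.8% with both. A gain only with both drugs was seen in an Lhx2 tile, at 82.8% and 55.1% with both and 3.4% to 23.5% in the 6 other libraries. Of these lists, 10.7% of Hox tiles and 17.4% of those of developmental factors had a mean level below 5% against 34.6% of gene tiles, and the part of this in the counts was not tested.

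Imprinted genes, in which methylation marks the copy of 1 parent, had 125 tiles with 5 negative (4%) and 4 positive (3.2%). The shared promoter of Peg10 and Sgce was at 80% and 77.9% with vehicle, 21.1% and 62.7% with C29, 32.4% and 48.3% with 5-azadC, and 59.0% and 84.5% with both (5 cytosines, interaction 68.5 points). A Gnas tile of 18 cytosines went the other way, at 36.2% and 52.7% with vehicle, 72.4% to 80% in the 4 single-drug libraries, and 50.8% and 57.9% with both (interaction -55.0 points, chromosome 2, 174300001 to 174301000). The single drugs were above vehicle and combination there without overlap.

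ERR receptors and PGC-1 coactivators had 60 tiles with 1 negative (1.67%) and 5 positive (8.33%), and all 5 positive ones belong to Esrrg, the ERRγ gene. Its promoter tile of 29 cytosines was at 43.5% and 42.9% with vehicle, 23.4% and 24.1% with C29, 31.0% and 28.5% with 5-azadC, and 48.4% and 34.1% with both (chromosome 1, 187609001 to 187610000, at least 731 reads, interaction 30.9 points). Single drugs lay below vehicle and combination without overlap. In the negative tile, in Esrrb, the combination libraries were far apart, at 2.67% and 77%, and the other 6 at 83.1% to 100%. Genes of oxidative metabolism that are typical ERRα targets had 55 tiles, none negative or positive, and 65.5% of them had a mean level below 5%. By unadjusted limma p, 4 of the 55 were below 0.05, against 6.17% of all tiles, and none passed the adjusted threshold.

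Of enzymes that write or remove DNA methylation, 68 tiles held 0 negative and 3 positive (4.41%), in Dnmt3b, Tet3 and Zbtb38. In the Dnmt3b gene body, methylation was 88.1% and 95.9% with vehicle, 89.5% and 74.7% with C29, 74.5% and 66.9% with 5-azadC, and 84.0% and 88.3% with both (interaction 25.3 points). The methionine and folate cycle had 46 tiles with 2 negative, in Mat1a and Cbs, and 2 positive, in Ahcyl1 and Mtrr. The Cbs tile, in the gene of cystathionine synthesis from homocysteine, was at 61.9% and 68.4% with both drugs and at 85.7% to 100% in the 6 others. Tumor suppressors often methylated in breast cancer had 170 tiles with 6 negative (3.53%) and 10 positive (5.88%), most of them within Wwox, Fhit and Cdh13, which are very long genes. In Cdh1, the E-cadherin gene, a tile was at 40.7% and 28.3% with C29 alone and at most 9.88% in the 6 other libraries (interaction -34.9 points). The mammary lineage list had 1 negative tile, in Erbb3, and 2 positive ones, both in Nrg1, a ligand of ERBB3, among its 68 tiles. Germline genes had 37 tiles with 2 negative, in Pou5f1 and Tex14, and 0 positive. Interferon and antigen presentation genes had 53 with 0 negative and 2 positive, in Ciita and Isg20. The transcription factors named for the combination had 46 tiles over whole genes, with 1 negative, in Foxe1, and 2 positive, in Hoxa3 and Pou3f3.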

How the data were processed

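Per the labels and the study's methods, the authors had bisulfite-treated RRBS libraries sequenced and aligned. For each library they deposited the total read count at each CpG cytosine, each strand separately, and the methylated fraction of those reads, with no header and not normalized. Their processing notes name FastQC 0.11.8, Trim Galore 0.4.1, Bismark 0.20.0 and methylKit 1.7.0 with mm10 (GRCm38). For trimming settings, the sources used here give nothing. Bisulfite reads cannot tell methylation from hydroxymethylation, and PCR copies inflate the counts.

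Methylated reads were recovered as fraction times count, which came out whole within 0.01 reads for all but 2 to 5 cytosines a library, and were summed over the cytosines of each 1000 bp autosomal tile that had at least 10 reads in all 8 libraries (3 cytosines or more), as a percent of reads. The interaction was tested with limma 3.58.1 (R 4.3.3, moderated, variance trend, all 8 libraries) and adjusted by Benjamini-Hochberg. methylKit offers no such contrast. Library means were tested by exact permutation. Nothing in the labels says that the replicate numbers mark a batch. The code was tested on simulated data in which 200 tiles had a shift of -35 points with both drugs. Overdispersion, the spread between libraries beyond counting error, was set to 0.005 and to 0.08. The mean estimate in the shifted tiles was -34.2 and -35.9 points. By adjusted p, limma called 0 of the 200 at either setting, and at 0.08 it called 1 tile without a shift. Within groups the data had an overdispersion of 0.1. Genes and promoters (1000 bp upstream of a start site) come from GENCODE M21.

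Tiles were named by rule: the 12 most extreme per direction by the single-library estimate nearest 0, with at least 50 reads in every library and the same sign in all 16 estimates, 8 per direction among promoters, any called tile, runs of adjacent tiles, and 18 genes. The members, lists and rules were chosen with earlier results of these data known. Alternatives were other coverage, cytosine and tile minimums, summed strands, equal weights, a replicate block, M values, edgeR 4.0.16, logistic models and leaving out each library.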

Additional observations from a re-analysis of the deposited data

Results flagged for a closer look

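The interaction itself passed the adjusted threshold of limma in 2 tiles, which is what marked them. In the intron of Gm13816 it was -100.0 points: methylation was complete with vehicle, C29 and 5-azadC and absent with both drugs, over 3 cytosines read on the same fragments. In the promoter of Hs3st6 it was 14.2 points: the 7.73% to 7.97% of vehicle was at most 0.115% with single drugs and 5.92% to 6.81% with both, and 6 of its 11 cytosines had a positive value. With each library left out in turn, the interaction stayed at -100.0 points for Gm13816 and ranged from 13.7 to 14.6 points for Hs3st6. Libraries of a group were equal or nearly equal in these tiles, which is part of why the tiles were called. Leaving out a library therefore does not test the calls. Groups of 2 libraries are too small for an outlier test.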

How the results depend on the processing

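None of the 55 tiles named for their size, a call or a run, or for Mat1a and Foxe1, changed sign under any alternative run for it. The 28 promoter tiles of the other 13 genes and the 500 bp tiles were not included. For some alternatives the sign could not have changed. All 55 tiles had the same sign in every single-library estimate, which for most of them was a condition of being named. A value with a library left out is a mean of some of these estimates. The replicate block and the fit without a variance trend leave the estimate as it is. These settings therefore do not test the sign. The number of calls depended on the setting. Against 1 negative and 1 positive tile, limma called 0 and 1 at a coverage minimum of 5 reads, 15 and 12 with at least 1 cytosine per tile, 3 and 2 with 500 bp tiles, and 3 and 2 without a variance trend. It called 0 and 0 at 20 reads, with at least 5 cytosines, with strands summed, with equal weights and on M values. edgeR called 0 and 0 (1649 tiles at an unadjusted p below 0.05), a logistic F test 0 and 0 (2668 tiles), and a likelihood-ratio test with counting error only 11768 and 15675. With the replicate number as a block, limma called 0 and 0 (3051 tiles at an unadjusted p below 0.05), and same-numbered libraries share only a number, with correlations of deviations from -0.007 to 0.013. Leaving out 1 library gave 8 to 230 negative and 12 to 202 positive calls, but the lone library is then assumed to vary like the other groups, so these counts say nothing of stability.

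Of the 1084 values of named tiles under alternatives, 19 lost the threshold, all in Gm13816 and Hs3st6, and 65 gained it, mostly under the likelihood-ratio test.

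Counts moved over 1.5 times only with the tiles admitted or with fewer libraries. In the order 20 reads, at least 5 cytosines and at least 1 cytosine, tiles of at most -25 points numbered 731, 416 and 11079, and of at least 25 points 1275, 1003 and 14500. With 1 sign in all estimates these were 408, 259 and 4550 negative and 797, 675 and 6784 positive. Vehicle was lowest in 185, 227 and 1110 and highest in 1570, 1808 and 5275, C29 lowest in 308, 423 and 1424 and highest in 1342, 1400 and 4808, and 5-azadC lowest in 1732, 1651 and 7791. 5-azadC was highest in 406 at 20 reads and 1176 with at least 1 cytosine. The combination was lowest in 1151, 1127 and 5284 and highest in 497, 619 and 1800. A fall only with both drugs was found in 54, 24 and 593, and a fall with 5-azadC but not with both in 183, 110 and 2227.

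With 1 library left out, fewer estimates must share a sign. Tiles of at most -25 points then ranged from 2394 to 3026 and of at least 25 from 3629 to 4665, and those with 1 sign from 1800 to 2540 and from 2866 to 3905. Lowest and highest tiles ranged from 586 to 2704 and 3720 to 9256 for vehicle, 861 to 3561 and 3086 to 8505 for C29, 4277 to 9781 and 896 to 3875 for 5-azadC, and 2861 to 8033 and 1171 to 4952 for the combination. A fall only with both drugs ranged from 133 to 555 tiles, and with 5-azadC but not with both from 558 to 1376. The mean interaction ranged from 1.3 without C29 replicate 2 to 2.5 without C29 replicate 1. With 2 pooled libraries a group the variation between mice cannot be estimated.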

Other observations

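On the X chromosome, which the tiles above leave out, 1341 tiles met the same coverage rule. Their mean methylation was 61.0% and 60% with vehicle, 61.1% and 59.4% with C29, 55.9% and 56.9% with 5-azadC, and 57.2% and 57.5% with both drugs. The mean interaction was 1.24 points and the median 1.38 points. Of these tiles, 61 (4.55%) had an interaction of at most -25 points and 72 (5.37%) one of at least 25 points with the same sign in all 16 estimates.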
